A study of Homo sapiens with 6 samples.

Results

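The genes described here belong to the antioxidant response governed by NRF2, to glutathione and thioredoxin metabolism, to iron handling and to the lipid enzymes of ferroptosis. They were 37 genes chosen by symbol, each with a mean of at least 0.5 FPKM (sequenced fragments divided by transcript length and by the mapped total of the library) over 6 libraries, out of 14770 genes that reached this level. RNA was sequenced from MDA-MB-231, an established human triple-negative breast cancer line of mesenchymal character. The cells stably expressed either a control short hairpin RNA (Sh-NC, labelled WT) or a hairpin against YAP1 (Sh-YAP1, labelled YAP1 knockdown), they received no treatment, and RNA was taken on day 3. Each group had 3 libraries, and the comparison asked how expression differed once the transcriptional co-activator YAP1 was lowered. The labels do not say whether the libraries came from separate cultures. The methods describe the data in general as coming from independent experiments without tying this to the sequencing, so the p-values are read as measuring the spread between these libraries, which may be technical. The labels give no hairpin sequence and do not say how many hairpins or clones stand behind the Sh-YAP1 group, so an effect of lower YAP1 and another effect of the hairpin cannot be told apart.

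NRF2, the product of NFE2L2, is a transcription factor that KEAP1 holds in the cytoplasm and marks for degradation until oxidants or electrophiles modify KEAP1. Stabilised NRF2 pairs with small MAF proteins at antioxidant response elements and drives genes for glutathione synthesis, quinone reduction, NADPH production and the thioredoxin system. Ferroptosis is a form of cell death in which iron promotes the peroxidation of membrane phospholipids. GPX4 reduces those lipid peroxides with glutathione, the transporter SLC7A11 brings in the cystine from which glutathione is made, and ACSL4 supplies the polyunsaturated fatty acids that are oxidised. YAP activity has been linked in other cells to the transcription of TFRC and ACSL4.

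The knockdown was visible in every library. YAP1 (ENSG00000137693) was expressed at 22.9 to 28.1 FPKM in the Sh-NC libraries and at 2.58 to 3.35 FPKM in the Sh-YAP1 libraries (log2 difference -2.79, adjusted p = 0.0018, limma with Benjamini-Hochberg adjustment). The line's own markers were high, with VIM at 1645 to 2303 FPKM and CD44 at 114 to 147 FPKM, while ESR1 and PGR stayed at or under 0.07 FPKM and CDH1 at or under 0.49 FPKM in all libraries. EPCAM, an epithelial marker that is low in this line, was present at 2.43 to 3.27 FPKM. Leukocyte markers were near 0, with PTPRC at most 0.04 FPKM, CD14 at most 0.84 FPKM and CD3E listed at 0. The stromal and endothelial markers PDGFRB, PECAM1, DCN and VWF did not exceed 1.71 FPKM. FPKM summed to between 467493 and 475116 per library, no counts accompany these values, and the depth is therefore unknown.

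Of the 37 genes, 2 rose and 1 fell in Sh-YAP1 cells. The quinone reductase gene NQO1 and the malic enzyme gene ME1 were up-regulated, and CAT, which encodes catalase, was downregulated. These 3 genes are 8.11% of the members, against 3.38% of all genes tested (1.75% higher and 1.62% lower in Sh-YAP1) at an adjusted p under 0.05 in limma with Benjamini-Hochberg adjustment. No member differed by more than 0.76 on the log2(FPKM + 1) scale, on which all differences below are given as Sh-YAP1 minus Sh-NC. The median difference of the members was -0.04, against 0.00 for all genes tested, with 16 estimates above 0 and 21 below. The median size of a difference, regardless of sign, was 0.21 for the members and 0.16 for all genes, and 23 of the 37 lay within 0.25 of 0.

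The library values of the 2 groups did not overlap for 17 members (45.9%), 7 with Sh-YAP1 higher and 10 with Sh-YAP1 lower. Among all genes tested the groups did not overlap for 29.4%, with 14.6% higher and 14.7% lower. An unadjusted p under 0.05 was reached by 13 members, 6 higher and 7 lower, against 21.9% of all genes. For any single gene an exact two-sided permutation test of 3 libraries against 3 cannot go below p = 0.1. Without the filter on low values NQO1 and ME1 were no longer called (adjusted p = 0.0576 and 0.0575, limma with Benjamini-Hochberg adjustment over 30501 genes). Leaving out any single library ended some or all of the 3 calls. Without Sh-NC replicate 1 only CAT of the 37 was called, without Sh-NC replicate 3 ME1 and CAT were called, and without Sh-YAP1 replicate 1 CAT and NQO1 were called. Leaving out Sh-NC replicate 2, Sh-YAP1 replicate 2 or Sh-YAP1 replicate 3 left 0 members called by limma, with 11 to 12 members at an unadjusted p under 0.05. In each of these fits NQO1, ME1 and CAT kept their direction.

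**Figure D1:**
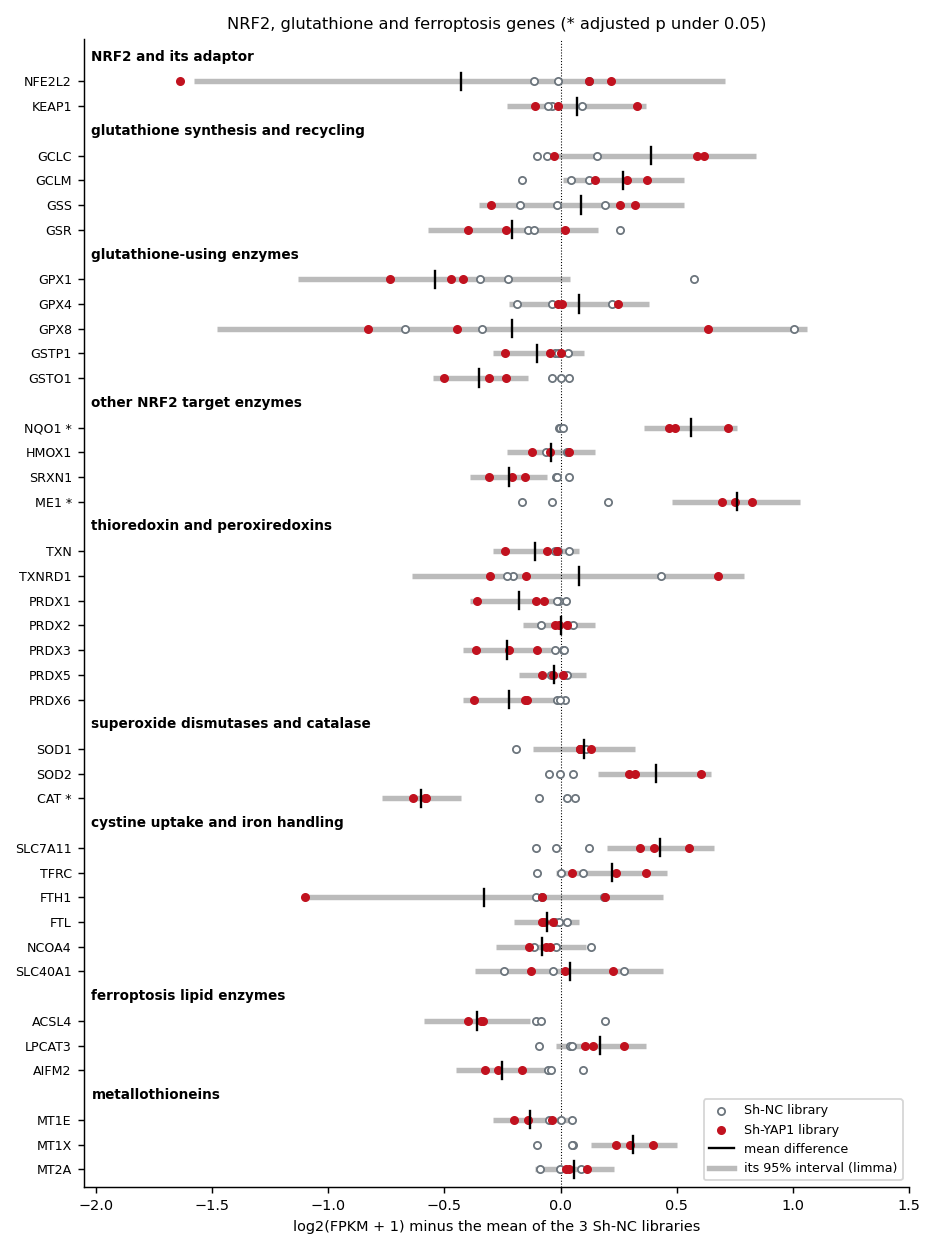
Expression of each of the 37 genes in the 3 Sh-NC libraries (open circles) and the 3 Sh-YAP1 libraries (red circles) as log2(FPKM + 1) minus the mean of the Sh-NC libraries, with the mean difference (black mark) and its 95% interval from limma (grey bar). NQO1 and ME1 stand to the right with differences of 0.56 and 0.76, CAT stands to the left at -0.60, and single distant libraries widen the intervals of NFE2L2, GPX8, TXNRD1 and FTH1.

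Neither NRF2 itself nor its adaptor passed the test at the mRNA level, and neither had an unadjusted p under 0.05 in limma. NFE2L2 (ENSG00000116044) was expressed at 37.7, 40.5 and 44.5 FPKM in Sh-NC and at 44.6, 12.4 and 47.6 FPKM in Sh-YAP1, in the order of replicates 1 to 3. The low value of Sh-YAP1 replicate 2 stood apart. Sh-YAP1 replicate 1 was level with the highest Sh-NC library (44.57 against 44.54 FPKM), and Sh-YAP1 replicate 3 lay above it. The difference was -0.43 with a standard error of 0.48 (95% interval -1.58 to 0.71, adjusted p = 0.646, limma with Benjamini-Hochberg adjustment), and it became 0.17 without Sh-YAP1 replicate 2. KEAP1 (ENSG00000079999), the adaptor of the ubiquitin ligase that degrades NRF2, was expressed at 51.2, 46.7 and 46.1 FPKM in Sh-NC. Its Sh-YAP1 libraries held 47.6, 44.4 and 60.5 FPKM and overlapped the controls on both sides, so that the difference was 0.07 (-0.23 to 0.37, adjusted p = 0.783, limma with Benjamini-Hochberg adjustment). The activity of NRF2, which is set largely by the stability of the protein, was not measured by these libraries.

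Of the 4 other NRF2 target enzymes on the list, 2 rose, against 1.75% of all genes, and 2 did not pass the test. These 4 are not all the members that NRF2 drives, since its targets include glutathione synthesis and thioredoxin system genes. On the lists of glutathione synthesis and recycling (4 genes) and of thioredoxin and peroxiredoxins (7 genes) limma called 0. NQO1 (ENSG00000181019), which reduces quinones without releasing semiquinone radicals and is a standard readout of NRF2, was expressed at 183, 183 and 185 FPKM in the control libraries. It reached 304, 255 and 259 FPKM with the YAP1 hairpin. All Sh-YAP1 libraries lay far above the controls, which differed little among themselves. The means were 183.9 ± 1.09 and 272.5 ± 27.2 FPKM (SD, n = 3), a 1.48-fold difference, with a log2 difference of 0.56 (standard error 0.08, 95% interval 0.36 to 0.76, adjusted p = 0.0246, limma with Benjamini-Hochberg adjustment). ME1 (ENSG00000065833), the cytosolic malic enzyme that makes NADPH while turning malate into pyruvate, was expressed at 4.83, 4.32 and 5.88 FPKM in Sh-NC and at 9.58, 9.05 and 8.69 FPKM in Sh-YAP1. The lowest Sh-YAP1 library was well above the highest control. The means were 5.01 ± 0.795 and 9.11 ± 0.448 FPKM (SD, n = 3), a 1.82-fold difference, and the log2 difference of 0.76 (standard error 0.11, 0.48 to 1.03, adjusted p = 0.0252, limma with Benjamini-Hochberg adjustment) was the largest of the 37 genes. In bulk RNA, a change in the number of cells that express a gene and a change in its RNA per cell cannot be told apart.

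HMOX1 (ENSG00000100292), the inducible heme oxygenase and another classical NRF2 target, was expressed at 10.4, 9.71 and 10.4 FPKM in Sh-NC. In Sh-YAP1 it was expressed at 9.27, 9.81 and 10.5 FPKM, which spans the control range. The difference was -0.04, with a narrow interval of -0.23 to 0.15 (adjusted p = 0.791, limma with Benjamini-Hochberg adjustment). SRXN1, which repairs hyperoxidised peroxiredoxins, was lower in each Sh-YAP1 library (31.7 to 35.5 FPKM) than in any Sh-NC library (39.0 to 40.6 FPKM), yet its difference of -0.22 gave an adjusted p of 0.136 (limma, Benjamini-Hochberg). The 4 target enzymes thus held values on both sides of 0.

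The promoters of the 3 changed genes are shown because NRF2 acts through a short element in promoters and enhancers. Each sequence is the 250 bases before the RefSeq transcription start on GRCh38.p14, written 5′ to 3′ on the strand of the gene. NQO1 is on the minus strand at chr16:69726561-69726810, ME1 on the minus strand at chr6:83431052-83431301 and CAT on the plus strand at chr11:34438684-34438933. Capitals mark matches to the antioxidant response element core TGACNNNGC, searched on both strands.
NQO1: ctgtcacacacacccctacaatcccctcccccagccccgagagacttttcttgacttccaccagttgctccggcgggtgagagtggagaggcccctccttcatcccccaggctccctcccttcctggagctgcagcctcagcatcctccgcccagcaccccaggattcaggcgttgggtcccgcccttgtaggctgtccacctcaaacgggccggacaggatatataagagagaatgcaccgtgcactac
ME1: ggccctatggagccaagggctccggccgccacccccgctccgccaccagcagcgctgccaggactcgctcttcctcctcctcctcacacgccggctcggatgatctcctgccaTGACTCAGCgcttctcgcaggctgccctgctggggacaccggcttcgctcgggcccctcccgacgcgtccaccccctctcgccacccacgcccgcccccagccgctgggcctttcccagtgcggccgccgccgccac
CAT: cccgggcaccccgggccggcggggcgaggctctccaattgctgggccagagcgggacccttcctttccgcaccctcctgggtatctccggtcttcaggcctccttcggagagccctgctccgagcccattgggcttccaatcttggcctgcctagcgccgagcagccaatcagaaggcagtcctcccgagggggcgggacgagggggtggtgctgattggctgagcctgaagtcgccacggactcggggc

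The ME1 window held 1 match, TGACTCAGC, on the strand of the gene with its first base 137 bases before the start. The windows of NQO1 and CAT held 0 matches, which says only that these letters are not within 250 bases of these starts. RefSeq promoters were given for 28 of the 37 members, some with several starts, which made 38 promoters. Of the 38, 10 held a match, and they belonged to 9 genes, namely KEAP1, GCLM, GSTP1, GSTO1, ME1, TXNRD1, AIFM2, MT1X and MT2A. Among all 35116 promoters of the same length, likewise counted per start, 10.9% held one. Of the 9 genes with a match only ME1 passed the expression test, and a match to these letters is not evidence of binding.

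None of the 4 genes of glutathione synthesis and recycling passed the test by limma, and 1 of them had an unadjusted p under 0.05. GCLC and GCLM encode the catalytic and modifier subunits of glutamate-cysteine ligase, the rate-limiting enzyme of glutathione synthesis. GCLM was 5.24 to 6.63 FPKM in Sh-NC and 6.76 to 8.08 FPKM in Sh-YAP1, with no overlap, and a difference of 0.27 (adjusted p = 0.22, limma with Benjamini-Hochberg adjustment). GCLC was 5.89 to 7.25 FPKM in Sh-NC, while Sh-YAP1 replicates 1 and 3 reached 10.4 and 10.1 FPKM and replicate 2 remained at 6.26 FPKM within the control range. Its difference of 0.39 had an interval of -0.06 to 0.84 (adjusted p = 0.283, limma with Benjamini-Hochberg adjustment). GSS, the glutathione synthetase, and GSR, the reductase that restores glutathione with NADPH, differed by 0.09 (-0.35 to 0.53) and -0.21 (-0.57 to 0.16) with overlapping groups.

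Among the 5 enzymes that use glutathione, none passed the test by limma and 1 had an unadjusted p under 0.05. GPX4 (ENSG00000167468), the phospholipid hydroperoxidase that guards against ferroptosis, was expressed at 97.1, 129 and 108 FPKM in Sh-NC. The Sh-YAP1 libraries held 132, 111 and 109.9 FPKM, and the ranges of the groups largely coincided. The difference was 0.08, with an interval of -0.22 to 0.38 (adjusted p = 0.751, limma with Benjamini-Hochberg adjustment). GSTO1, an omega-class glutathione transferase, was 149 to 157 FPKM in Sh-NC and 108 to 130.2 FPKM in Sh-YAP1, with no overlap and a difference of -0.35 (adjusted p = 0.081, limma with Benjamini-Hochberg adjustment). GPX1, the cytosolic glutathione peroxidase, was also lower in every Sh-YAP1 library (30.5 to 38.0 FPKM) than in Sh-NC (40.1 to 76.9 FPKM). Its difference of -0.54 (-1.13 to 0.04) leaned on Sh-NC replicate 2 and was -0.26 without that library. GSTP1 and GPX8, a peroxidase of the endoplasmic reticulum, differed by -0.10 (-0.29 to 0.10) and -0.21 (-1.48 to 1.06) with overlapping groups.

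The thioredoxin and peroxiredoxin genes were among the more abundant members, and none of the 7 passed the test by limma, with 2 at an unadjusted p under 0.05. Peroxiredoxins reduce hydrogen peroxide and are themselves reduced by thioredoxin (TXN) and its reductase (TXNRD1). For 3 of the 7 genes the groups did not overlap and the Sh-YAP1 values were lower, as for 14.7% of all genes. These were the peroxiredoxins PRDX1 (453 to 466 against 358 to 436 FPKM, difference -0.18), the mitochondrial PRDX3 (164 to 169 against 129.6 to 156 FPKM, difference -0.23) and PRDX6 (167 to 171 against 129.9 to 152 FPKM, difference -0.22). Their adjusted p-values were 0.295, 0.17 and 0.171 in limma with Benjamini-Hochberg adjustment, and in each of them Sh-YAP1 replicate 1 was the lowest library. PRDX2 (-0.16 to 0.15), PRDX5 (-0.18 to 0.11) and TXN (-0.29 to 0.08) had intervals that spanned 0. TXNRD1 was 62.4 to 99.6 FPKM in Sh-NC and 59.4 to 118 FPKM in Sh-YAP1, with 1 high library in each group, and its interval ran from -0.64 to 0.79.

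Catalase was the member with the smallest p. CAT (ENSG00000121691), the peroxisomal enzyme that splits hydrogen peroxide into water and oxygen, was expressed at 44.3, 48.3 and 49.4 FPKM in Sh-NC. In Sh-YAP1 the values were 31.3, 30.03 and 31.2 FPKM. The Sh-YAP1 libraries lay close together and well below the controls. The means were 47.3 ± 2.70 and 30.8 ± 0.702 FPKM (SD, n = 3), a ratio of 0.652, with a log2 difference of -0.60 (standard error 0.07, -0.77 to -0.43, adjusted p = 0.0135, limma with Benjamini-Hochberg adjustment). SOD2, the mitochondrial superoxide dismutase, was 15.8 to 17.0 FPKM in Sh-NC and 20.3 to 25.5 FPKM in Sh-YAP1 without overlap, and its difference of 0.41 gave an adjusted p of 0.0869 (limma, Benjamini-Hochberg). SOD1, the cytosolic dismutase, differed by 0.10 (-0.12 to 0.32) with overlapping groups.

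Of the 6 genes for cystine uptake and iron handling, none passed the test by limma and 1 had an unadjusted p under 0.05. SLC7A11 (ENSG00000151012), the transport subunit of the cystine-glutamate exchanger, was expressed at 10.3, 11.0 and 12.2 FPKM in Sh-NC and at 16.8, 14.4 and 15.0 FPKM in Sh-YAP1. Each Sh-YAP1 library lay above each control. The means were 11.2 ± 0.991 and 15.4 ± 1.26 FPKM (SD, n = 3), and the difference was 0.43 (0.20 to 0.66) with an adjusted p of 0.0673 in limma with Benjamini-Hochberg adjustment. TFRC (ENSG00000072274), the transferrin receptor through which cells take up iron, was expressed at 85.7, 91.8 and 79.8 FPKM in Sh-NC and at 88.7, 101 and 111 FPKM in Sh-YAP1. The lowest Sh-YAP1 library fell between the controls, and the difference was 0.22 (-0.02 to 0.46, adjusted p = 0.265, limma with Benjamini-Hochberg adjustment).

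Ferritin, the cage that stores iron, is built from the heavy chain FTH1 and the light chain FTL. FTH1 (ENSG00000167996) was expressed at 806, 988 and 820.3 FPKM in Sh-NC and at 404, 990.4 and 821 FPKM in Sh-YAP1. Sh-YAP1 replicates 2 and 3 matched the level of the controls and replicate 1 was far lower. The difference was -0.33 (-1.09 to 0.44, adjusted p = 0.596, limma with Benjamini-Hochberg adjustment), and it was 0.06 without Sh-YAP1 replicate 1. FTH1 has many processed copies, and 25 pseudogenes named after it summed to 77.3 to 97.6 FPKM, at most 20.2% of the FTH1 value, so reads may have been divided among them. FTL, the most abundant member at 3047 to 3283 FPKM, had no overlap between groups, but its difference was only -0.06 (-0.20 to 0.08). NCOA4, the receptor that delivers ferritin to autophagy, and SLC40A1, the iron exporter ferroportin, differed by -0.08 (-0.28 to 0.11) and 0.04 (-0.37 to 0.44). SLC40A1 was the least abundant member at 0.47 to 1.1 FPKM, where the added 1 FPKM shrinks a difference most.

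None of the 3 ferroptosis lipid enzymes passed the test by limma. An unadjusted p under 0.05 was reached by 2 of them, against 21.9% of all genes, and the groups did not overlap for any of the 3, as for 29.4% of all genes. ACSL4 (ENSG00000068366), the acyl-CoA synthetase for arachidonic acid, was expressed at 28.8, 35.6 and 29.3 FPKM in Sh-NC and at 24.3, 23.4 and 24.5 FPKM in Sh-YAP1. Every Sh-YAP1 library was below every control. The means were 31.2 ± 3.82 and 24.0 ± 0.601 FPKM (SD, n = 3), a ratio of 0.77, with a difference of -0.36 (-0.59 to -0.13) and an adjusted p of 0.102 in limma with Benjamini-Hochberg adjustment. AIFM2, also called FSP1, which regenerates reduced coenzyme Q in membranes, was 14.0 to 15.6 FPKM in Sh-NC and 11.4 to 12.9 FPKM in Sh-YAP1 (difference -0.25, adjusted p = 0.148, limma with Benjamini-Hochberg adjustment). LPCAT3, which inserts polyunsaturated acyl chains into phospholipids, was 18.6 to 20.6 FPKM in Sh-NC and 21.5 to 24.2 FPKM in Sh-YAP1 (difference 0.17, adjusted p = 0.274, limma with Benjamini-Hochberg adjustment). ACSL4 and TFRC, the genes linked to YAP elsewhere, thus had estimates of opposite sign here, and neither passed the test.

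**Figure D2:**
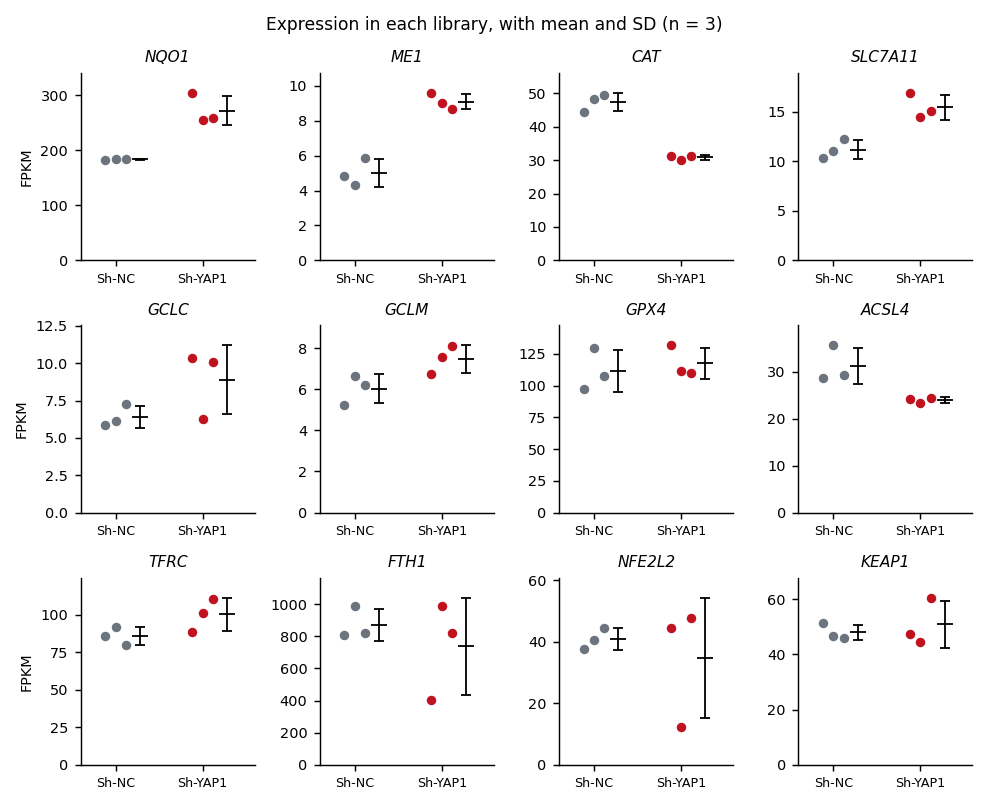
FPKM of 12 members in each Sh-NC (grey) and Sh-YAP1 (red) library, replicates 1 to 3 from left to right, with the group mean and SD (n = 3) beside the points and every axis starting at 0. NQO1, ME1, SLC7A11 and GCLM have all Sh-YAP1 points above the Sh-NC points, CAT and ACSL4 have them below, and 1 low library sets the SD of FTH1 (404 FPKM) and of NFE2L2 (12.4 FPKM) in Sh-YAP1.

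Metallothioneins bind zinc, copper and cadmium through their cysteines and also react with oxidants. Of the 3 on the list none passed the test by limma, and 1 had an unadjusted p under 0.05. MT1X was 68.6 to 76.5 FPKM in Sh-NC and 87.1 to 97.5 FPKM in Sh-YAP1, without overlap, and its difference of 0.31 (0.13 to 0.50) gave an adjusted p of 0.0845 (limma, Benjamini-Hochberg). The far more abundant MT2A, at 1357 to 1559 FPKM, differed by 0.06 (-0.11 to 0.23). MT1E differed by -0.13 (-0.29 to 0.04). These genes are close copies of each other, so the assignment of reads among them is uncertain.

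The members differed widely in level and in how well the libraries agreed. Together they held 7713 to 8867 FPKM, which was 1.62% to 1.87% of a library, and FTL alone made up 36.2% to 39.5% of that sum. The SD within a group exceeded 30% of the group mean in at least 1 group for 6 members, namely NFE2L2, GPX1, GPX8, TXNRD1, FTH1 and SLC40A1. For the other 31 it did not, and the median SD over the members was 6.2% of the mean in Sh-NC and 8.8% in Sh-YAP1. Sh-YAP1 replicate 1 was the lowest of its group for 24 of the 37 members, replicate 2 for 9 and replicate 3 for 4. In the control group Sh-NC replicate 1 was the lowest for 20, replicate 2 for 6 and replicate 3 for 11. The part that this library pattern plays in the lower estimates of PRDX1, PRDX3, PRDX6 and GSTO1 was not tested, and without Sh-YAP1 replicate 1 their differences were -0.09, -0.16, -0.15 and -0.27.

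The files hold 1 value per transcript, and the 37 genes comprised 294 transcript rows, of which 204 reached a mean of 0.1 FPKM. None of the 204 rows passed the test by limma with Benjamini-Hochberg adjustment over all 77655 rows tested, where 0.0515% passed, and 13 rows had an unadjusted p under 0.05, against 6.12% of all rows. For the 3 changed genes, 1 row carried the gene. The leading row of NQO1 held 80.9% to 91.7% of the gene in each library and was 148 to 159.6 FPKM in Sh-NC against 217 to 279 FPKM in Sh-YAP1. The leading row of CAT held 93.7% to 96.2% and was 42.5 to 46.9 FPKM in Sh-NC against 28.9 to 29.9 FPKM in Sh-YAP1. ME1 had a single row, which held the same library values as the gene. These values passed in the gene fit but not in the row fit (adjusted p = 0.0252 and 0.474, limma with Benjamini-Hochberg adjustment). The ME1 row thus adds no separate measurement to that of the gene.

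The same row led the gene in all 6 libraries for 30 members and did not for GCLC, GSS, GPX4, TXNRD1, SOD2, FTH1 and ACSL4. One TXNRD1 row was 86.0 FPKM in Sh-NC replicate 1 and 89.97 FPKM in Sh-YAP1 replicate 3, and it was at most 0.04 FPKM in the other 4 libraries. These were the same libraries in which the TXNRD1 sum was high. The leading GPX4 row in Sh-NC was 68.1 to 82.2 FPKM there and 81.2 FPKM in Sh-YAP1 replicate 2, but only 10.6 and 26.8 FPKM in the first and the third Sh-YAP1 library, while the sum over the GPX4 rows hardly moved. For FTH1 the share of its main row ranged from 20.6% to 87.5% of the gene. In NFE2L2 both main rows were lowest in Sh-YAP1 replicate 2, at 7.02 and 4.35 FPKM, so the low sum of that library did not come from 1 row. The transcript rows carry no transcript identifier, so these rows cannot be named as isoforms.

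**Figure D3:**
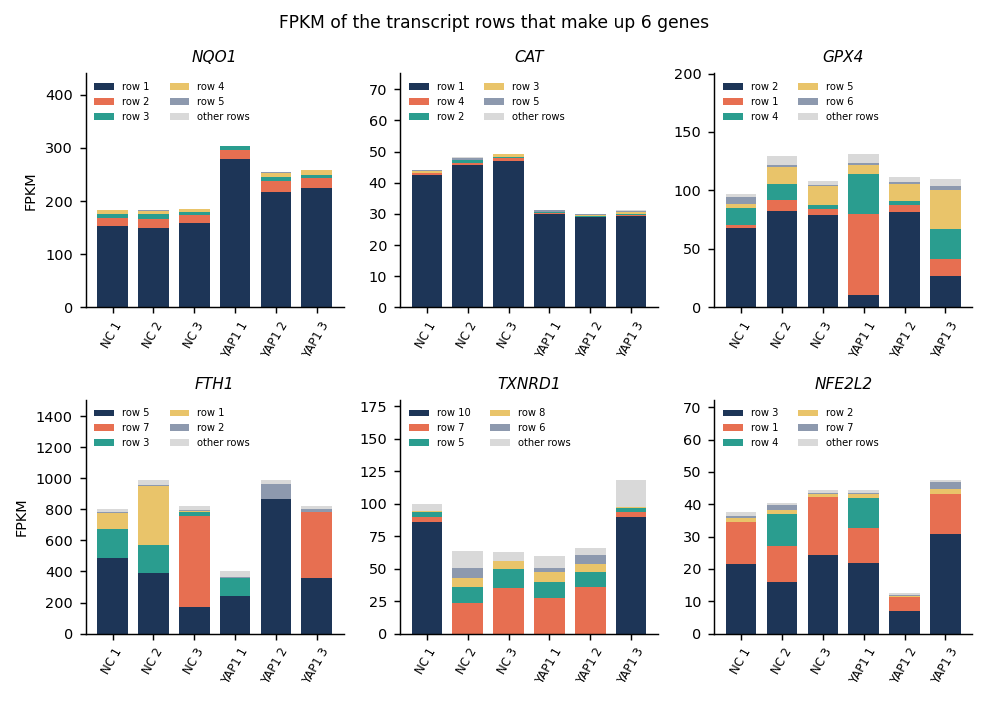
Stacked FPKM of the transcript rows of 6 members in each library, with the Sh-NC libraries (NC) on the left and the Sh-YAP1 libraries (YAP1) on the right, and rows numbered in file order within each gene. One row makes up most of NQO1 and CAT in every library, whereas the rows of GPX4, FTH1 and TXNRD1 trade places between libraries, with 1 TXNRD1 row present at 86.0 and 89.97 FPKM in only 2 libraries.

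Outside the 37 genes, 143 further genes of the same pathways were listed and 113 of them reached 0.5 FPKM. Of these, 2 rose and 4 fell (5.31%, against 3.38% of all genes tested). The groups did not overlap for 45 (39.8%, against 29.4%), and 32 of the 113 had an unadjusted p under 0.05, which 21.9% of all genes reached. Without the filter on low values ABCC3, PIR, TXN2, TXNRD2 and MSRB3 were no longer called (adjusted p = 0.0727, 0.0518, 0.0555, 0.0741 and 0.0597, limma with Benjamini-Hochberg adjustment) and IDH1 was. The 2 that rose and 1 of the 4 that fell were among the 23 other NRF2 target genes. ABCC3, an efflux pump for glucuronide and glutathione conjugates, was 11.6, 10.9 and 8.36 FPKM in Sh-NC and 18.1, 16.8 and 18.4 FPKM in Sh-YAP1 (difference 0.75, adjusted p = 0.0336, limma with Benjamini-Hochberg adjustment). PIR, the iron-binding nuclear protein pirin, was 4.60, 3.94 and 4.30 FPKM in Sh-NC and 6.72, 6.91 and 7.24 FPKM in Sh-YAP1 (difference 0.59, adjusted p = 0.0245, limma with Benjamini-Hochberg adjustment). Neither gene had overlapping groups. IDH1, the cytosolic isocitrate dehydrogenase, which makes NADPH as ME1 does, moved the other way, from 69.5, 64.0 and 68.3 FPKM in Sh-NC to 36.6, 37.4 and 38.2 FPKM in Sh-YAP1 (difference -0.83, adjusted p = 0.00686, limma with Benjamini-Hochberg adjustment). Of the 6 genes only IDH1 passed whichever library was left out, with adjusted p-values of 0.025 to 0.0398 (limma, Benjamini-Hochberg).

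The other 3 that fell were among the 13 tested genes of the thioredoxin system, against 1.62% of all genes called lower. TXN2, the mitochondrial thioredoxin, was 40.5, 44.7 and 39.0 FPKM in Sh-NC and 18.9, 17.1 and 25.3 FPKM in Sh-YAP1 (difference -1.0, adjusted p = 0.0245, limma with Benjamini-Hochberg adjustment). TXNRD2, its reductase, was 15.5, 17.5 and 15.2 FPKM in Sh-NC and 8.21, 8.25 and 11.0 FPKM in Sh-YAP1 (difference -0.75, adjusted p = 0.0341, limma with Benjamini-Hochberg adjustment). MSRB3, a methionine sulfoxide reductase, was 5.09, 5.68 and 6.41 FPKM in Sh-NC and 1.64, 2.85 and 1.90 FPKM in Sh-YAP1, the largest difference of the 113 genes at -1.12 (adjusted p = 0.0245, limma with Benjamini-Hochberg adjustment). When libraries were left out in turn, the adjusted p-values of ABCC3, PIR, TXN2, TXNRD2 and MSRB3 ran up to 0.11, 0.0894, 0.0884, 0.11 and 0.0876. ABCC3 was called only without Sh-NC replicate 3, TXN2 and TXNRD2 only without Sh-YAP1 replicate 3, MSRB3 only without Sh-YAP1 replicate 2 and PIR in none of these fits. For each of these genes and for IDH1 the leading transcript row changed between libraries, and none of their rows passed the test by limma. Of the TXN2 rows, 1 and 2 differed by -2.7 and -1.05, while 3 and 4 differed by -0.11 and 0.27. The cytosolic partners TXN and TXNRD1 had intervals that spanned 0, as given above, and the difference between the mitochondrial and cytosolic genes was not tested.

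In the remaining lists limma called 0 genes, against 3.38% of all genes. This held for the main fit only. MAFF of the NRF2 regulators and partners (adjusted p = 0.0526, limma with Benjamini-Hochberg adjustment) was called with a filter at 1 FPKM and with median centring. GGCT of the glutathione genes was called without Sh-YAP1 replicate 3. An unadjusted p under 0.05, which 21.9% of all genes reached, was found for 4 of 22 other glutathione genes, 2 of 10 other NRF2 regulators and partners, 3 of 15 other iron genes, 9 of 24 other cystine and ferroptosis genes, 0 of 4 other superoxide genes and 0 of 2 genes of the metal response. The median difference of a list ranged from -0.15 for the thioredoxin system to 0.08 for the NRF2 regulators, the superoxide genes and the metal response. Of the 11 other metallothionein and metal response genes 9 were below 0.5 FPKM and were not tested.

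**Figure D4:**
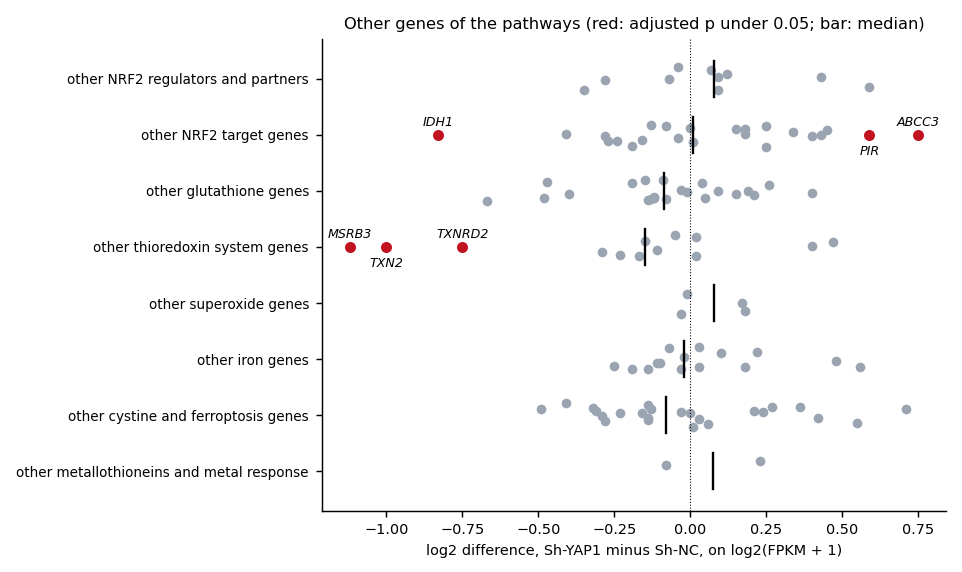
Log2 difference, Sh-YAP1 minus Sh-NC, of the 113 tested genes of the same pathways outside the 37 members, 1 point per gene and 1 line per list, with genes at an adjusted p under 0.05 (limma) in red and the median of each list as a black bar. ABCC3 and PIR stand at 0.75 and 0.59, IDH1 at -0.83, and MSRB3, TXN2 and TXNRD2 at -1.12, -1.0 and -0.75.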

How the data were processed

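RNA of MDA-MB-231 cells was sequenced from 3 Sh-NC and 3 Sh-YAP1 libraries. The authors deposited FPKM values, 1 per transcript and library, with a gene identifier, 2 decimals and no counts. The submitters' processing notes name Bowtie 0.12.2, HISAT2 2.0 and hg19 without their roles. The methods cite a different data series for the sequencing, so the account of stable hairpin expression and of repeated experiments was tied to these libraries only through cell line, hairpin and replicate number. The quantification tool and annotation are not given in the sources used here. Depth is therefore unknown, no interval for counting error within a library could be given, and all errors come from the spread between libraries.

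All 229420 rows were summed per gene identifier, which gave 60612 genes. Symbols were found for 60588 of them through the gene name table or GENCODE 29. Gene positions from GENCODE 29 on GRCh38 served only to list overlapping genes, and none is printed, since the files' build may differ. Values were transformed to log2(FPKM + 1). The 14770 genes whose mean reached 0.5 FPKM, and the 77655 transcript rows whose mean reached 0.1 FPKM, were each fitted by limma 3.58.1 under R 4.3.3 (lmFit, then eBayes allowing a trend of variance with mean). The model held the condition alone, tests were two-sided, and p-values were adjusted by Benjamini-Hochberg over every gene or every row fitted. An adjusted p under 0.05 was the threshold, and intervals are 95% intervals from the same fit. Count models were not used on FPKM. The code was tested on simulated data. Tables and figures were made with Python 3.11.15, pandas 2.3.3, numpy 2.4.6 and matplotlib 3.10.9. Promoter sequences came from RefSeq on GRCh38.p14.

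The 37 members and the pathway lists were chosen with earlier results of these data known. Values in every library are given for members that passed the threshold and for NFE2L2, KEAP1, SLC7A11, GPX4, TFRC, FTH1, ACSL4, HMOX1 and NQO1. Pathway genes were named when they passed it in the main fit or in an alternative, together with YAP1 as the target. The strandedness of the libraries is not stated, so reads of genes that overlap on opposite strands cannot be told apart. Some items are not reported here. Alternatives changed the pseudocount, the filter, the normalization, the mean-variance trend, the rows summed, the replicate block and the libraries included.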

Additional observations from a re-analysis of the deposited data

How the results depend on the processing

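YAP1 was called in all 16 alternatives, with differences of -3.17 to -2.56. NQO1, ME1 and CAT kept their direction in all 16 and were called in 9, 9 and 12 of them. The count of called members was 3, and it was 3 with pseudocounts of 0.1 and 0.01, a filter at 1 FPKM, quantile normalization, median centring, no trend and both other gene sums. Without a filter, when 30501 genes were tested, it was 1 (CAT), with 232 genes and 1 other pathway gene called in place of 499 and 6. With each library left out in turn the called members numbered 0 to 2, all genes 78 to 171 and pathway genes 1 to 4. Other alternatives raised the count of pathway genes. It was 8 with the 1 FPKM filter, which added MAFF and AKR1C3, and 8 with quantile normalization, which added TKT and AKR1C3. With median centring it was 7, with MAFF added.

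Libraries of the same number did not vary together, with correlations of -0.028 to 0.062 between their deviations from the group means, and 2 of the 6 libraries correlated best with their own number. The replicate block left 1 gene called of 14770 (2779 at an unadjusted p under 0.05), 0 members (12 unadjusted) and 0 pathway genes, with adjusted p-values (limma, Benjamini-Hochberg) of 0.13, 0.131 and 0.121 for NQO1, ME1 and CAT. The numbers are not known to mark a shared culture or day.

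Signs changed only for members that were not called. Under quantile normalization TXN, PRDX2 and PRDX5 became 0.01, 0.06 and 0.07. Summing without rows above 1 FPKM in a single library gave GSS -0.05 and 346 called genes, and the calls of ABCC3 and TXNRD2 were lost (adjusted p 0.0599 and 0.123, limma with Benjamini-Hochberg adjustment), which left 4 pathway genes. With single libraries left out, the differences spanned -0.76 to 0.17 for NFE2L2, -0.06 to 0.16 for KEAP1, -0.02 to 0.29 for GSS, -0.01 to 0.19 for GPX4, -0.64 to 0.29 for GPX8, -0.23 to 0.29 for TXNRD1, -0.04 to 0.03 for PRDX2, -0.59 to 0.06 for FTH1 and -0.08 to 0.17 for SLC40A1. SLC40A1 had no value under the 1 FPKM filter. No transcript row of a member was called by limma in any alternative run on rows. The causes of these shifts were not tested. With depth unknown and 3 libraries a group, a difference that missed the threshold is not shown to be absent.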
